A study of Homo sapiens with 16 samples.

Results

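The nuclear genes of oxidative phosphorylation were taken as gene names of the count table that mostly stand for structural subunits of the respiratory chain and of ATP synthase: NDUFA, NDUFB, NDUFC, NDUFS and NDUFV with digits (complex I), SDHA to SDHD (complex II), names starting with UQCR (complex III), COX4 to COX8 with their suffixes (complex IV) and names starting with ATP5 (ATP synthase). Pseudogenes, antisense genes and NDUFAF assembly factors were left out. The rule reads gene names alone, so it also takes the inhibitor ATP5IF1 and the read-through row ATP5MF-PTCD1, and it counts NDUFA4 under complex I. It likewise takes ATP5S, which RefSeq names DMAC2L, and the rows ATP5MGL and UQCRHL, with 218 and 285 counts over all libraries. This gave 87 of 58721 genes: 37 of complex I, 4 of complex II, 9 of complex III, 16 of complex IV and 21 of ATP synthase.

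The respiratory chain sits in the inner mitochondrial membrane, where complexes I and II pass electrons from NADH and succinate to ubiquinone, complex III passes them on to cytochrome c, and complex IV hands them to oxygen. Complexes I, III and IV pump protons as they do so, and ATP synthase lets the protons flow back and makes ATP. Most subunits are encoded in the nucleus and imported, while a small core of complexes I, III, IV and ATP synthase is encoded by the mitochondrial genome, so both sets have to be assembled together. Complex II is encoded by the nucleus alone.

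The genes were measured by 3' mRNA sequencing in 16 libraries of total RNA from 2 established human bladder cancer cell lines, RT112, grown in RPMI with serum, and SCaBER, grown in DMEM with serum. Each line was transfected with lipid and 10 nM of siRNA: siControl.1, siControl.2, siFOXA1.1 or siFOXA1.2, with replicates 1 and 2 of each, numbered in the labels as batches of the experiment. FOXA1 is a pioneer transcription factor of luminal urothelium, and the comparisons of siFOXA1 with siControl address its knock-down. The study calls the knock-down short-term, its exact time is not given in the sources used here, and nothing states that replicates were separate cultures, so the p-values measure the spread between these libraries. As the lines were grown in different media, line and medium cannot be told apart.

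Libraries held between 4528513 and 7604581 counts. FOXA1 stood at 34.95 and 29.88 CPM (the counts of a gene relative to the TMM-scaled total of its library, the unit of all levels here) in RT112 under siControl.1, at 17.79 and 27.33 under siControl.2, at 1.39 and 3.54 under siFOXA1.1 and at 9.18 and 15.95 under siFOXA1.2. All 4 siFOXA1 libraries of RT112 lay below all 4 control libraries (means 7.52 against 27.5 CPM, exact permutation p = 0.0286, two-sided, the smallest that 4 libraries against 4 can give). In edgeR's quasi-likelihood test FOXA1 fell by 3.44 on the log2 scale under siFOXA1.1 (adjusted p = 2.19e-05), while the values under siFOXA1.2 (-1.10, adjusted p = 0.205) and with both siRNAs pooled (adjusted p = 0.278) did not pass, and the level was lower under siFOXA1.1 than under siFOXA1.2 (-2.34, adjusted p = 0.00181). In SCaBER FOXA1 was already low, at 0.497 to 2.40 CPM under control siRNA against 0 to 0.941 under siFOXA1 (exact permutation p = 0.114), so there the labels could hardly be checked against the target. The luminal factor GATA3 stood at 230.9 to 449.8 CPM in RT112 and at 7.68 to 17.8 in SCaBER, and the basal keratin KRT14 at 0 to 7.58 and 372.7 to 1016, while KRT20 was at 0 in all libraries but 1. Of the 7 basal markers tested under control siRNA, 5 were lower in RT112, KRT16 was higher (log2 difference 0.90, adjusted p = 0.037) and TP63 did not pass (-0.26, adjusted p = 0.558). Markers of other cell types summed to 61.3 and 58.9 CPM under siFOXA1.1 in RT112 against 10.05 to 17.9 in the controls of that line, and to 1.54 to 20.1 over all SCaBER libraries. COL1A1 made up nearly all of that sum under siFOXA1.1 in RT112, and PTPRC, CD3E, COL3A1 and DES were at 0 in all 16 libraries.

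Libraries under siFOXA1.1 stood apart in other genes too. Of all genes tested there, 32.6% of 11986 in RT112 and 9.26% of 11902 in SCaBER passed edgeR's quasi-likelihood test (adjusted p under 0.05). Of 13 proliferation genes tested, 12 fell in RT112 and 11 in SCaBER, and the summed level of that list was 1143 and 724 CPM in RT112 against 3616 to 4130 in the other 6 libraries of the line. Of the interferon genes, 9 of 11 tested rose in RT112 and 11 of 12 in SCaBER, and STAT2, a transcription factor of the interferon response, stood at 41.1 and 46.2 CPM in RT112 against 10.5 to 18.4 in the controls. Under siFOXA1.2 0 genes of these lists passed by edgeR's quasi-likelihood test in either line. At an unadjusted p under 0.05 there were 1 proliferation and 3 interferon genes in RT112 and 0 and 4 in SCaBER. Over all genes tested there were 1454 of 11986 in RT112 and 634 of 11902 in SCaBER. The part of these changes in the results on oxidative phosphorylation was not tested. In bulk RNA, fewer cells of one kind and less RNA per cell cannot be told apart.

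Detection came first. Of the 87 genes, 77 had over 3 counts in all 16 libraries and 4 had none in any library: COX6A2, COX7A1, COX7B2 and COX8C, which are tissue-restricted copies of broadly expressed complex IV subunits. The copies COX6A1, COX7A2, COX7B and COX8A were all measured. COX4I2, the lung-enriched copy of COX4I1, had 7 counts in 1 library. COX6B2, known as the testis form of COX6B1, was seen in SCaBER at 3.52 to 6.35 CPM under control siRNA and in RT112 at 0 to 1.61. Core subunit NDUFV2 and accessory subunit NDUFA7 had only 36 and 71 counts over all 16 libraries, although every cell with complex I needs NDUFV2. Each of them overlaps another gene on the same strand, as do 36 of the 87, in a GENCODE release later than that of the counts. Reads that fall on more than 1 gene are left out of STAR's gene counts. The part of that rule in these low counts was not tested.

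**Figure D1:**
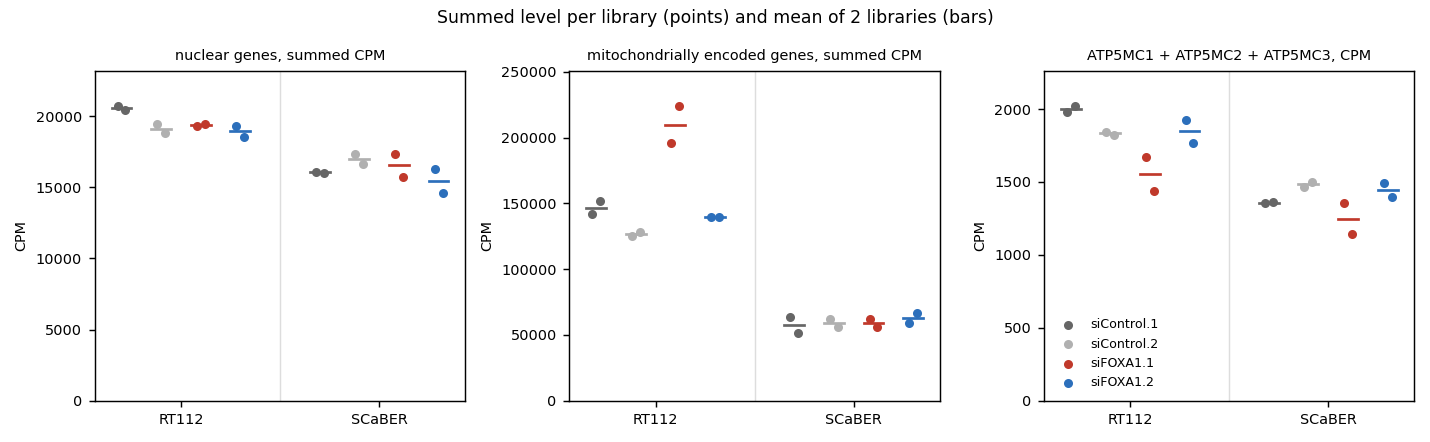
Summed CPM per library of the nuclear genes of oxidative phosphorylation (left), of the mitochondrially encoded subunits (middle) and of the c subunit genes ATP5MC1, ATP5MC2 and ATP5MC3 (right), for both lines and the 4 siRNAs; points are libraries and bars the mean of 2. In RT112 under siFOXA1.1 the mitochondrially encoded sum stands at 195900 and 224100 CPM, above the 125200 to 151700 of the controls, while the nuclear sum, on this TMM scale, stays within the range of the controls.

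The level of the 87 genes together depended on the scaling. On the TMM scale their summed level in RT112 was 19840 ± 879.7 CPM under control siRNA (SD, n = 4, range 18820 to 20710), 19270 and 19420 under siFOXA1.1 and 19300 and 18540 under siFOXA1.2. In SCaBER it was 16520 ± 616.7 CPM under control siRNA (SD, n = 4, range 15980 to 17330), 17320 and 15750 under siFOXA1.1 and 16250 and 14610 under siFOXA1.2. Replicate 2 of siFOXA1.2 lay below the range of the controls in both lines, as did replicate 2 of siFOXA1.1 in SCaBER, and the other siFOXA1 libraries lay within it. As a share of unscaled counts, the genes took 1.95 to 2.07% in the RT112 controls, 1.83 and 1.78% under siFOXA1.1 and 1.93 and 1.86% under siFOXA1.2, so that all 4 siFOXA1 libraries lay below all 4 controls. With the genes of the mitochondrial genome left out of the total, the shares were 2.41 to 2.596%, 2.46 and 2.48%, and 2.40 and 2.33%, and the siFOXA1.1 libraries lay within the range of the controls. In SCaBER the share of all counts was 1.62 to 1.76% in the controls, 1.68 and 1.60% under siFOXA1.1 and 1.63 and 1.48% under siFOXA1.2.

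Gene by gene, the siRNAs differed. Under siFOXA1.1 in RT112, 30 of 78 genes tested passed an adjusted p of 0.05 against both controls together, 12 higher and 18 lower, beside 32.6% of all 11986 genes tested in that comparison. The members' share of 38.5% was thus close to that background. Most changes were small. Of the 78 genes 5, or 6.41%, changed at least 2-fold (a log2 change of 1 or more either way), beside 27.4% of all genes. These shares were not matched for expression level. The median log2 change was -0.09, beside -0.01 over all genes. By complex, 11 of 35 genes passed in complex I, 2 of 4 in complex II, 2 of 9 in complex III, 5 of 10 in complex IV and 10 of 20 in ATP synthase.

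The direction depended on the scaling. With library totals alone 7 genes were higher and 25 lower, as the median of all genes moved to -0.14, and on the deposited TPM, which also divide by gene length, 2 were higher and 32 lower with an all-gene median of -0.31. Relative to the all-gene median, that of the genes described here was -0.08 with TMM, -0.08 with library totals and -0.11 on TPM. The choice of control counted as well: against siControl.2 alone 13 were higher and 9 lower, and against siControl.1 alone 8 and 19. Of the 30 calls, 19 were lost in at least 1 alternative and 11 held in all 18, of which 8 left out a library. Among these were falls of NDUFB3, NDUFV3, NDUFA4, SDHA, UQCRC2, COX8A, ATP5MC1, ATP5MC3 and ATP5MF and a rise of UQCR10.

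Under siFOXA1.2 in RT112, 1 of 78 genes passed (UQCRB), beside 2.04% of all genes. In SCaBER, 1 of 79 passed under siFOXA1.1, beside 9.26% of 11902 genes (3 with the replicate number as a block), and 0 under siFOXA1.2 beside 0.042%, with 2 genes at an unadjusted p under 0.05 by edgeR and 0 called by DESeq2. Over all 11902 genes, 634 had an unadjusted p under 0.05 under siFOXA1.2. Both siFOXA1 siRNAs of a line were set against the same control libraries. Directly against each other, siFOXA1.1 and siFOXA1.2 differed in 24 of 78 genes in RT112, 10 higher and 14 lower under siFOXA1.1, beside 28.1%, and in 1 of 79 in SCaBER, beside 4.85% (2 with the block, UQCRB being added). In RT112 that split was 12 and 12 with size factors in place of TMM, 6 and 17 with library totals, and 1 and 22 or 24 on TPM with a pseudocount of 1 or 0.1.

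With both siRNAs pooled against both controls, the comparison of 4 libraries with 4, no gene passed in RT112 (0 of 78, 5 at an unadjusted p under 0.05, 0 by DESeq2) beside 0.108% of all genes. SCaBER likewise had 0 of 79 (2 at an unadjusted p under 0.05, 0 by DESeq2), beside 0.0084%. Over all genes, 1454 of 11986 in RT112 and 1059 of 11902 in SCaBER had an unadjusted p under 0.05 when pooled. The 2 control siRNAs gave the background of the design: siControl.1 against siControl.2 called 0 of 78 by edgeR in RT112, beside 2.36%, with 15 at an unadjusted p under 0.05 and 3 by DESeq2, and 0 of 79 in SCaBER, beside 0.0672%, with 1 at an unadjusted p under 0.05 and 0 by DESeq2. Between the controls 1577 of all 11986 genes in RT112 and 790 of 11902 in SCaBER had an unadjusted p under 0.05. In RT112 the siControl.1 libraries had the higher summed level of the genes.

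**Figure D2:**
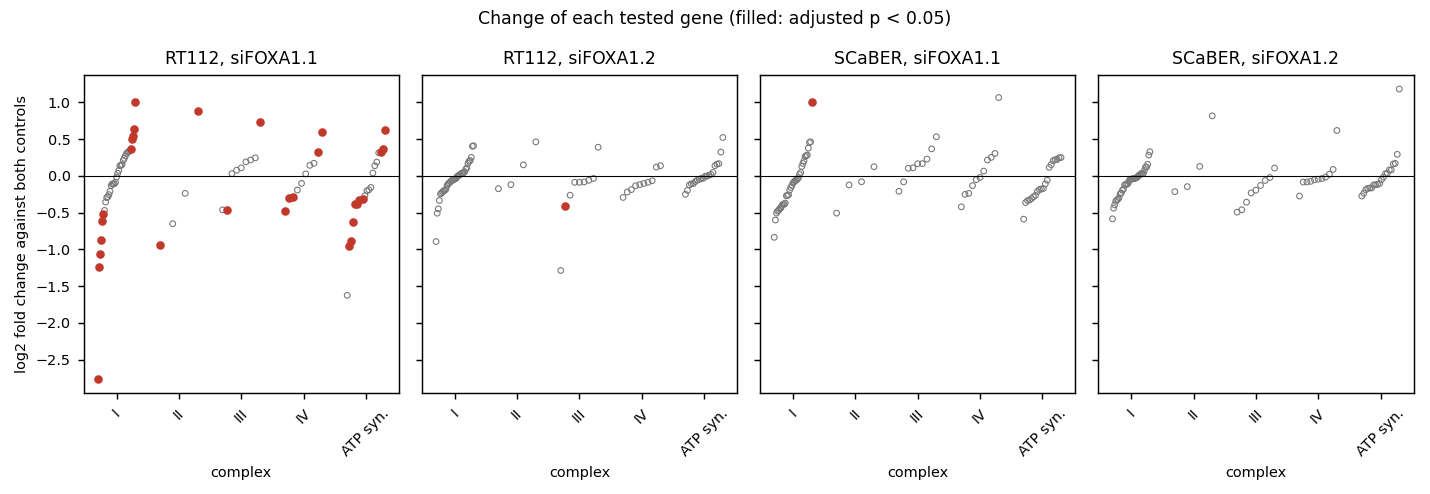
Log2 fold change of each tested gene against both controls, by complex, for each line and siFOXA1 siRNA; each point is a gene and filled points passed an adjusted p of 0.05. Filled points number 30 in RT112 under siFOXA1.1, 1 in RT112 under siFOXA1.2, 1 in SCaBER under siFOXA1.1 and 0 in SCaBER under siFOXA1.2.

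Complex I, which oxidises NADH, held the largest fall of all the calls, that of NDUFB3, an accessory subunit of the membrane arm. Its RT112 levels were 38.8 and 35.4 CPM under siControl.1, 21.6 and 61.6 under siControl.2, 3.71 and 7.72 under siFOXA1.1 and 54.7 and 49.4 under siFOXA1.2. Both siFOXA1.1 libraries lay below all others, with a log2 change of -2.76 (SE 0.41, adjusted p = 4.79e-05). In SCaBER the gene was low throughout, at 4.78 to 28.7 CPM in the controls and 4.48 and 17.5 under siFOXA1.1, and those groups overlapped. The difference between the lines in this change was -2.60 on the log2 scale, with an adjusted p of 0.0562, and passed with library totals (adjusted p = 0.0474), DESeq2 (0.0221) and no filter (0.000323).

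NDUFV3, an accessory subunit of the NADH-oxidising arm, stood in RT112 at 88.3 and 101.6 CPM under siControl.1, 71.0 and 67.3 under siControl.2 and 28.7 and 39.1 under siFOXA1.1, and at 82.9 and 72.1 under siFOXA1.2. Its log2 change under siFOXA1.1 was -1.24 (SE 0.19, adjusted p = 8.28e-05), and the siFOXA1.1 libraries again lay below all others. NDUFA4, named for complex I but found as a subunit of complex IV, went from 152.7 to 221 CPM in the RT112 controls to 81.5 and 94.1 under siFOXA1.1 (log2 change -1.07, SE 0.15, adjusted p = 3.36e-05). In SCaBER it stood at 234.1 to 275.3 CPM in the controls and 179.4 and 245 under siFOXA1.1. The difference between the lines was -0.83 (adjusted p = 0.0628) and passed with library totals, DESeq2, no filter and both TPM fits (adjusted p from 0.0165 to 0.0411). Smaller falls in RT112 were those of NDUFB10 (log2 change -0.87, lost against siControl.2 alone), NDUFS7, a core subunit with an iron-sulfur cluster (-0.62, lost in 4 of 18 alternatives), and NDUFA8 (-0.53, lost in 5). Rises included those of NDUFS1, the iron-sulfur subunit of the electron path (0.54, lost in 8 of 18 alternatives), NDUFS4 (0.50, lost in 12) and NDUFB9 (0.37, lost in 5).

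NDUFA12, an accessory subunit of the peripheral arm, was the single gene whose change under siFOXA1.1 passed for a difference between the lines with TMM, 1 of 79 beside 3.14% of 13701 genes. Library totals, DESeq2, no filter and both TPM fits called 3 to 5 genes, NDUFA4 among them in each. Its RT112 levels were 63.25 to 77 CPM in the controls and 111.6 and 109.4 under siFOXA1.1, while in SCaBER they were 100.8 to 118.9 CPM in the controls and 64.5 and 91.3 under siFOXA1.1. The siFOXA1.1 libraries lay above all controls in RT112 and below all controls in SCaBER. The difference in log2 change was 1.13 (SE 0.26, adjusted p = 0.0214), made of a rise of 0.64 in RT112 (adjusted p = 0.00386) and a value of -0.51 in SCaBER that did not pass (adjusted p = 0.165). Over 24 alternatives the difference ran from 0.875 to 1.40, and its adjusted p from 0.00114 to 0.0826, so that the call was lost in 8 of them: both fits on TPM and without SCaBER siFOXA1.1 replicate 1, SCaBER siControl.2 replicate 2, either RT112 siFOXA1.1 library, or replicate 2 of either RT112 control. Among the SCaBER siFOXA1.2 libraries the gene stood at 87.7 and 80.1 CPM, also below the controls there.

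**Figure D3:**
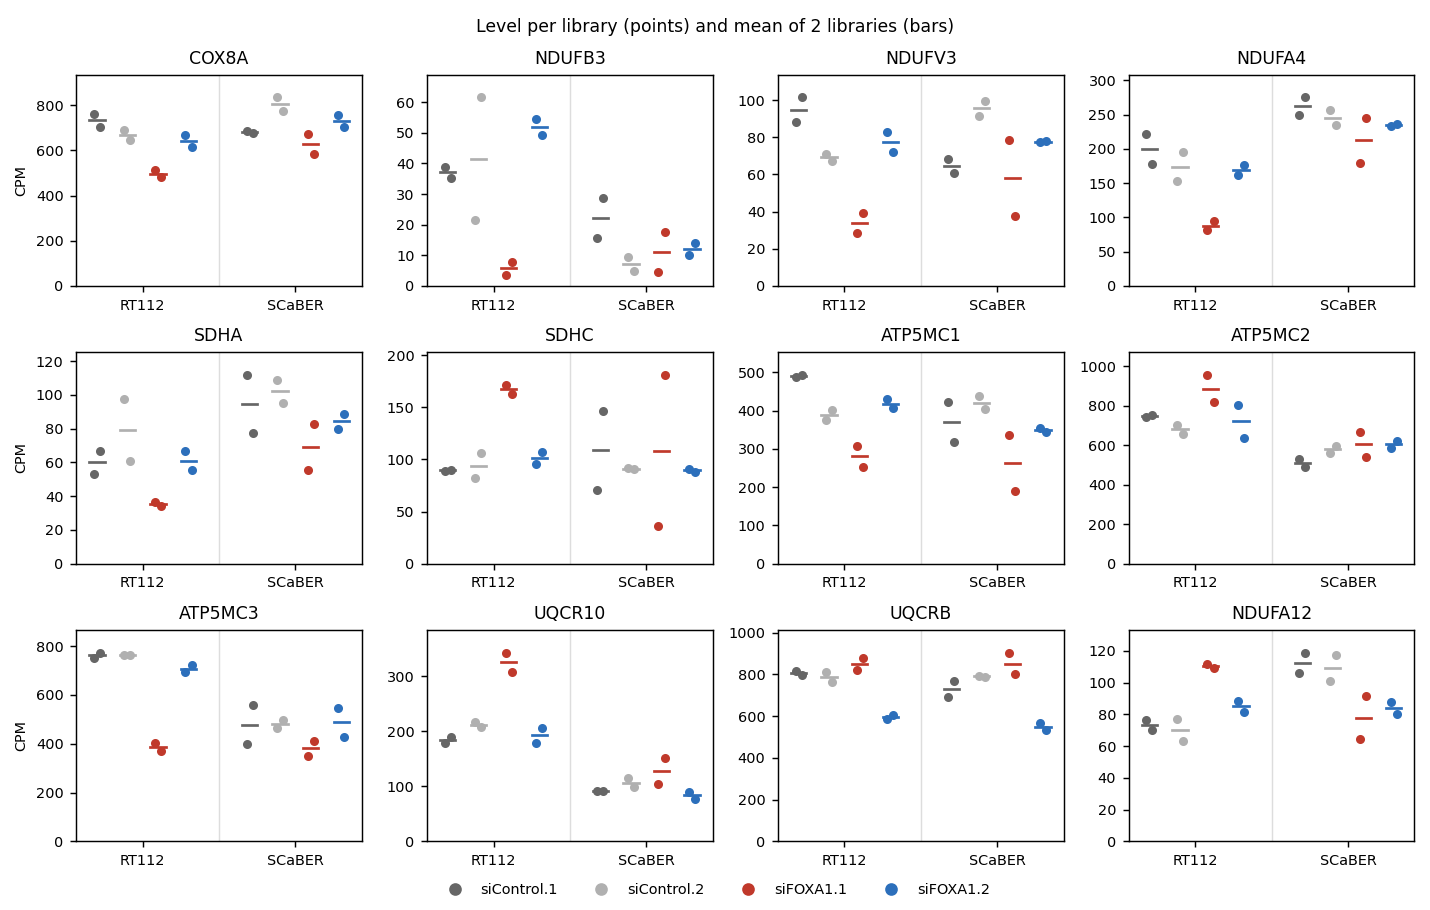
CPM per library of 12 genes in both lines under the 4 siRNAs; points are libraries, bars the mean of 2, and each panel starts at 0. UQCR10 is highest and ATP5MC3, NDUFA4, NDUFV3 and COX8A are lowest under siFOXA1.1 in RT112, and UQCRB is lowest under siFOXA1.2 in both lines.

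Complex II, succinate dehydrogenase, split within itself. SDHA, the flavoprotein that oxidises succinate, stood in RT112 at 53.3 to 97.8 CPM in the controls and at 36.6 and 34.3 under siFOXA1.1, below all controls (log2 change -0.94, SE 0.22, adjusted p = 0.00324). SDHC, a membrane anchor, stood at 82.3 to 106.1 CPM in the controls and at 171.7 and 163.3 under siFOXA1.1, above all of them (log2 change 0.88, SE 0.14, adjusted p = 0.000117). The call for SDHC was lost on TPM. SDHB, the iron-sulfur subunit, had 26.4 to 43.1 CPM in the controls and 25.02 and 22.1 under siFOXA1.1, below all of them, and did not pass. SDHA shares sequence with 3 pseudogenes whose counts came to 9.09% of its own. The effect of that likeness on the counts of SDHA was not tested.

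In SCaBER the 2 siFOXA1.1 libraries differed from each other by more than any other pair for this complex. SDHC stood at 36.0 CPM in replicate 1 and 181.1 in replicate 2, against 71.1 to 146.1 in the controls. SDHB stood at 4.87 and 28.1 CPM, so that the summed level of the complex was 102.5 and 295.3 CPM, below and above the control range of 199.1 to 258.2.

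Complex III, which passes electrons from ubiquinol to cytochrome c, held the single call under siFOXA1.2. UQCRB, a small subunit near the ubiquinone site, stood in RT112 at 762.7 to 814.3 CPM in the controls and 585.2 and 605.8 under siFOXA1.2, below all others of the line (log2 change -0.42, SE 0.09, adjusted p = 0.0201). In SCaBER the levels were 691.9 to 792.5 CPM and 565.9 and 533.2, again with no overlap, but the value of -0.46 had an adjusted p of 0.686. The RT112 call was lost in 8 of 18 alternatives, with either siFOXA1.2 library left out among them (adjusted p = 0.27 and 0.187).

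UQCR10, another small subunit, stood in RT112 at 178.8 to 217.4 CPM in the controls and 342.4 and 308.3 under siFOXA1.1, above all controls (log2 change 0.73, SE 0.12, adjusted p = 8.2e-05). UQCRC2, one of the core proteins that form the matrix side of the complex, stood at 207.1 to 247.9 CPM and 168 and 158.8, below all controls (log2 change -0.46, SE 0.12, adjusted p = 0.00799).

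In complex IV, cytochrome c oxidase, COX8A, the small membrane subunit, stood in RT112 at 646.1 to 761.6 CPM in the controls and 513 and 481.6 under siFOXA1.1, with no overlap (log2 change -0.48, SE 0.10, adjusted p = 0.000882). COX5A and COX7C fell by 0.30 and 0.28 on the log2 scale, calls lost in 10 and 3 of 18 alternatives. COX6A1, the broadly expressed copy of COX6A, had 230.2 to 263.7 CPM in the controls and 365.7 and 373.3 under siFOXA1.1 (log2 change 0.60, SE 0.11, adjusted p = 0.00056), and COX7A2 rose by 0.32. The COX6A1 call was lost on TPM and that of COX7A2 in 12 of 18 alternatives, where its value came down to 0.0004.

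The promoters of 3 of these genes are printed here because NDUFB3 had the largest fall and COX6A1 and NDUFS7 were, of the genes called in RT112 under siFOXA1.1, those of largest change that hold the motifs of NRF1, of ETS factors such as GABPA, and of YY1, factors known to bind promoters of respiratory genes. Each is 300 bases of RefSeq sequence (GRCh38.p14, plus strand), from 250 before the gene's start to 50 after it, at chr2:201071751-201072050, chr12:120437863-120438162 and chr19:1383657-1383956. Capitals mark GCGCATGC (NRF1), CCGGAAG (ETS) or AAGATGGCG (YY1) on either strand.
NDUFB3: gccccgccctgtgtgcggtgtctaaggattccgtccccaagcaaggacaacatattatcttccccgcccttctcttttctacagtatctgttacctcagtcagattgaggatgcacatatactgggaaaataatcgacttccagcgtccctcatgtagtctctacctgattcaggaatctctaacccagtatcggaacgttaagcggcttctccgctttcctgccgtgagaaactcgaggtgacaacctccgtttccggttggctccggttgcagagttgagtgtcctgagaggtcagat
COX6A1: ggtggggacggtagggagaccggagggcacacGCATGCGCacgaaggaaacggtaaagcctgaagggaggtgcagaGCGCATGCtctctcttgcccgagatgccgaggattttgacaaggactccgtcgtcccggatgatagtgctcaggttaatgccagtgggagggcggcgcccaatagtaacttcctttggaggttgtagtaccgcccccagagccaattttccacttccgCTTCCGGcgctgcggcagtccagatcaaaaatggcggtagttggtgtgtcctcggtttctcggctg
NDUFS7: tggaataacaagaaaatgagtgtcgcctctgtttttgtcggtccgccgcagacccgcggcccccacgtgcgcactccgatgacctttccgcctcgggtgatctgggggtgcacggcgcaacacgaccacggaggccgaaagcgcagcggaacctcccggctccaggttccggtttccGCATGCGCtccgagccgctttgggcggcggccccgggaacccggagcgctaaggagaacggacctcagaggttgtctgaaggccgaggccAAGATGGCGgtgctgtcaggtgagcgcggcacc
The COX6A1 promoter held 3 matches, the NDUFS7 promoter 2 and the NDUFB3 promoter 0.

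A promoter entry was found for 68 of the 87 genes. GCGCATGC stood in 13 of them (19.1%), beside 3.27% of all 27305 promoters and 4.26% of those of protein-coding genes. CCGGAAG stood in 20 (29.4%), beside 10.7% and 14.2%, and AAGATGGCG in 8 (11.8%), beside 1.85% and 2.74%. At least 1 of the 3 was in 31 (45.6%), beside 14.6% and 19.5%. GCGCATGC overlaps its own reverse complement, so 1 stretch can count on both strands, and a match of letters is not a bound site. Of the genes higher under siFOXA1.1 in RT112, 9 had a promoter entry, of which 2 held the NRF1 letters, 2 the ETS letters and 1 the YY1 letters. Among the genes that were lower the counts were 3, 3 and 1 of 14.

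ATP synthase held 10 of the calls, 3 higher and 7 lower. The c subunits form the rotating ring of the enzyme, and ATP5MC1, ATP5MC2 and ATP5MC3 encode the same mature protein with different import sequences. ATP5MC3 stood in RT112 at 752.9 to 773.2 CPM in the controls, 404.4 and 370.9 under siFOXA1.1 and 693.2 and 722 under siFOXA1.2. Its siFOXA1.1 libraries lay far below all others (log2 change -0.96, SE 0.10, adjusted p = 5.54e-07). ATP5MC1 stood at 374.9 to 493.2 CPM in the controls and 308.2 and 252.2 under siFOXA1.1, below all others as well (log2 change -0.62, SE 0.11, adjusted p = 0.000278).

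ATP5MC2 went the other way, at 657.8 to 754.4 CPM in the controls and 956.2 and 816.8 under siFOXA1.1 (log2 change 0.33, SE 0.10, adjusted p = 0.0206). That call was the less firm: it was lost in 8 of 18 alternatives, where its value came down to 0.001. With library totals the value was 0.20 (adjusted p = 0.173), and without the first siFOXA1.1 library it was 0.20. The 3 genes together summed to 1983, 2021, 1842 and 1824 CPM in the RT112 controls, 1669 and 1440 under siFOXA1.1 and 1928 and 1766 under siFOXA1.2, so the siFOXA1.1 sums lay below all controls. In SCaBER under siFOXA1.1 ATP5MC1 had a log2 change of -0.59 (adjusted p = 0.12) and ATP5MC3 of -0.34 (adjusted p = 0.303). With the replicate number as a block, ATP5MC1 passed in SCaBER (-0.62, adjusted p = 0.0344), as did NDUFB10 (-0.85, adjusted p = 0.0468).

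Around the ring, ATP5MF of the membrane part fell by 0.88 in RT112 under siFOXA1.1 (SE 0.16, adjusted p = 0.000297), from 113.1 to 147.2 CPM in the controls to 66.1 and 76.9. The catalytic beta subunit ATP5F1B had a log2 change of -0.39, and ATP5MPL, ATP5MG and ATP5ME changes of -0.38, -0.33 and -0.31, calls lost in 1, 3, 5 and 3 of 18 alternatives. ATP5PB, subunit b of the stator that holds the head in place, rose by 0.62 (SE 0.12, adjusted p = 0.000538), from 247.1 to 309.6 CPM to 378.3 and 471.7, a call lost on TPM, and ATP5F1E, the epsilon subunit, rose by 0.37, also lost on TPM. The inhibitor ATP5IF1, which blocks the enzyme from running backwards, stood at 349.7 to 373.3 CPM in the controls and 326.6 and 238.8 under siFOXA1.1, below them, and did not pass (adjusted p = 0.0586).

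Without FOXA1 siRNA, the lines themselves differed. Under control siRNA 41 of 79 genes passed, 29 higher and 12 lower in RT112 than in SCaBER, beside 43.4% of 12309 genes, and the median log2 difference was 0.22 beside 0.02 over all genes. At least 2-fold differences were seen for 12 of the 79 (15.2%), beside 34.6% of all genes, shares again not matched for expression level. The higher and lower counts rested on the scaling, being 35 and 5 with library totals without mitochondrial genes, where the median of all genes was 0.16, and 10 and 26 on TPM, where it was -0.34.

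With TMM scaling, the calls were uneven across complexes. ATP synthase had 9 genes higher in RT112 and 1 lower, complex IV 6 and 1, complex III 3 and 1, complex II 1 and 0, and complex I 10 and 9. Of all genes, 2612 were higher and 2729 lower. As the whole split depended on the scaling, these directions by complex are given for TMM only. On TPM COX7C and ATP5F1B changed sign, and 14 of the 41 calls held in every alternative.

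ATP5PF, a stator subunit known as factor 6, had the largest excess in RT112, at 474.5 to 535.1 CPM in RT112 controls and 101.5 to 145.2 in SCaBER (log2 difference 2.04, SE 0.14, adjusted p = 3.15e-08). ATP5ME, a small membrane subunit, stood at 648.3 to 859.1 CPM against 168.5 to 213.1 (2.01, SE 0.13, adjusted p = 2.1e-08). ATP5PO, which joins the stator to the head, followed at 226.9 to 303.8 against 83.6 to 120 CPM (1.45). None of these groups overlapped. COX7B, a small complex IV subunit, stood at 203.6 to 244 CPM against 80.4 to 107.4 (1.28).

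Higher in SCaBER were NDUFS8, an iron-sulfur core subunit of complex I, at 171.2 to 258.2 CPM against 84.95 to 120.9 in RT112 (log2 difference -1.11, adjusted p = 6.69e-05), and NDUFC2, an accessory subunit of the membrane arm, at 111 to 166.9 CPM against 51.02 to 77.7 (-1.07, adjusted p = 0.000174). COX6B2 had the largest ratio, -2.78 (SE 0.83, adjusted p = 0.0135), on few counts. Again these groups did not overlap.

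**Figure D4:**
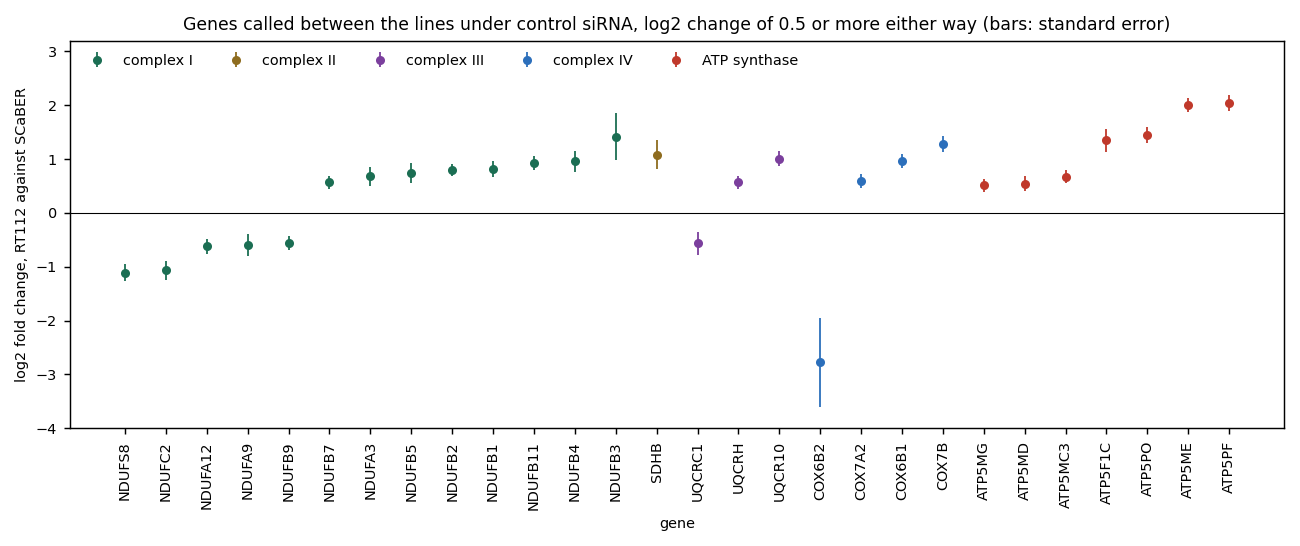
Log2 fold change of RT112 against SCaBER under control siRNA for the 28 of 41 genes that passed with a log2 change of at least 0.5 either way, grouped by complex; points are estimates and bars standard errors, with 4 libraries per line. ATP synthase genes reach 2.04 (ATP5PF) and COX6B2 is lowest at -2.78.

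Genes that work with the subunits were counted from lists of names. Of the 13 mitochondrially encoded subunits, all passed in RT112 under siFOXA1.1, 12 higher and 1 lower, led by MT-ND1 (1.30) and MT-ND2 (1.24), while MT-ND6, encoded on the other strand, had -0.62. All genes of the mitochondrial genome, ribosomal RNAs included, took 25.7 and 28.2% of the unscaled counts in those libraries against 18.0 to 21.2% in the other 6 of the line. In SCaBER under siFOXA1.1 0 of 13 passed by edgeR (2 at an unadjusted p under 0.05, beside 2737 of all 11902 genes). Between the lines 12 of 13 were higher in RT112. The median change of that list in RT112 was 0.60, beside -0.09 for the nuclear genes.

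Of the assembly factors, which build the complexes, 17 of 52 passed in RT112 under siFOXA1.1, 6 higher and 11 lower, a share of 32.7% beside 32.6% of all genes. NDUFAF3 (-1.51), NDUFAF4 (-1.39) and UQCC3 (-1.23) fell and NDUFAF1 (1.15), COX10 (0.77) and ECSIT (0.75) rose. In SCaBER 3 of 51 passed (5.88%, beside 9.26% of all genes), all lower: BCS1L (-1.96), UQCC1 (-1.52) and UQCC2 (-1.28), which serve complex III. The mitochondrial ribosome, which makes the mitochondrially encoded subunits, had 12 higher and 11 lower of 74 in RT112 (31.1%, beside the same 32.6%) and 1 higher and 3 lower of 74 in SCaBER (5.41%, beside 9.26%), and MRPS26 (-1.09 and -1.41) and MRPL11 (-0.90 and -0.86) fell in both lines.

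Of the mobile carriers and further subunits, 2 of 7 passed in RT112, CYCS, the cytochrome c that links complexes III and IV (-1.62), and ETFB (-0.52), and 1 of 7 in SCaBER, CYCS (-1.12). Of 17 tricarboxylic acid cycle genes, 6 passed in RT112, with DLAT (-1.87), FH (-1.31) and IDH2 (-0.75) lower and OGDH (0.83) and IDH3B (0.65) among the 3 higher, and IDH2 (-1.47) was lower in SCaBER. Of 16 regulators of mitochondrial biogenesis, MTERF1 (1.78), GABPA (0.88) and ESRRA (0.68) rose and NRF1 (-1.80) fell in RT112, and PPRC1 (-1.09) fell in SCaBER. All these counts, under siFOXA1.1, stand beside 32.6% of all genes in RT112 and 9.26% in SCaBER. Under siFOXA1.2 0 genes of these lists passed by edgeR in either line. The counts at an unadjusted p under 0.05 were 5 and 1 assembly factors in RT112 and SCaBER, 7 and 2 ribosomal genes, 1 and 1 carriers or further subunits, 1 and 1 genes of the tricarboxylic acid cycle, and 0 regulators and 0 mitochondrially encoded subunits. Over all genes tested under siFOXA1.2 there were 1454 of 11986 in RT112 and 634 of 11902 in SCaBER.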

How the data were processed

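RNA of 16 libraries was prepared with a 3' mRNA kit. The authors trimmed reads with TrimGalore 0.6.2 (minimum quality 20, minimum length 10) and counted them per gene with STAR 2.6.1a and GENCODE 29, as given in the submitters' processing notes and the study's methods, which name different genome builds (hg38 and hg19). The deposited raw count per gene and the deposited TPM (scaled by gene length and library) were both used, and counts were the basis of the tests. A 3' tag count does not grow with length, which TPM divides by.

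Groups came from the labels. edgeR 4.0.16 (R 4.3.3) fitted quasi-likelihood models to the counts of all genes that passed filterByExpr, per line with 1 mean per siRNA, for the lines over the controls, and for the interaction over all 16 libraries, with TMM scaling and Benjamini-Hochberg adjustment over all genes tested (threshold 0.05). CPM used the TMM-scaled library. limma 3.58.1 on log2(TPM + 1) and log2(TPM + 0.1), DESeq2 1.42.0, other scalings, no filter, single controls, a replicate block and each library left out were alternatives. The script was tested on simulated data. Genes were named if they passed, at most 12 each way per comparison, with core subunits, paralogues and the 3 largest passing changes each way per further list. The members and lists were chosen with earlier results of these data known.

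Replicate numbers are labelled as experiment batches, so they pair the samples. The main fits left this pairing out, and the replicate block was run as an alternative. Deviations of same-numbered libraries correlated at only -0.018 to 0.014 in RT112 and 0.019 to 0.20 in SCaBER. A gene at 3 counts or fewer in a library was treated as at the floor. Neighbouring genes were looked up by gene identifier in a GENCODE release later than 29, lifted to GRCh37. Promoters were looked up by symbol in RefSeq tables of GRCh38.p14. Some results that the rule for named genes would give are not reported here.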

Additional observations from a re-analysis of the deposited data

Results flagged for a closer look

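Of 32 groups of 4 libraries examined for a library far from the others, 1 held one: the summed level of the 87 genes over the 4 siFOXA1 libraries of RT112. Replicate 2 of siFOXA1.2, at 18540 CPM, lay apart from the other 3 by a gap that was 0.8295 of the whole range, barely above Dixon's critical value. Chance gives about 1 in 20 such groups where the 4 libraries are alike. This group held both siFOXA1.1 and siFOXA1.2, so that rate need not apply to it.

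The change of NDUFA12 under siFOXA1.1 differed between the lines by 1.13 on the log2 scale (adjusted p = 0.0214, edgeR's quasi-likelihood interaction test), as the siFOXA1.1 libraries lay above the controls in RT112 and below them in SCaBER. The call was lost in 8 of 24 alternatives, both fits on TPM among them, and the value in SCaBER alone did not pass.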

How the results depend on the processing

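Under the replicate block SCaBER siFOXA1.1 had 3 calls, and siFOXA1.1 against siFOXA1.2 in SCaBER had 2; the block moved no other count by more than 1.5 times (RT112 siFOXA1.1 had 31). Without the filter SCaBER siFOXA1.1 had 3 and the interaction 3. For siFOXA1.2 in RT112, DESeq2 and no filter gave 2, and limma on TPM with either pseudocount and siControl.2 alone gave 0. Between the RT112 controls, library totals gave 1 and DESeq2 3. For siFOXA1.1 against siFOXA1.2 in SCaBER, library totals, library totals without MT- genes and DESeq2 gave 2, and limma gave 0. The interaction had 3 with library totals, 5 with DESeq2 and 4 with limma.

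With each library left out in turn, calls numbered 23 to 27 for siFOXA1.1 in RT112, 0 to 2 for siFOXA1.2, 14 to 22 for siFOXA1.1 against siFOXA1.2 (14 without RT112 siFOXA1.2 replicate 1) and 0 to 1 between the controls. In SCaBER they were 1 to 6 for siFOXA1.1 (6 without either siFOXA1.1 library), 0 to 0 for siFOXA1.2, 0 to 6 for siFOXA1.1 against siFOXA1.2 (6 and 4 without siFOXA1.1 replicate 1 and 2, and 0 without either siControl.2 or either siFOXA1.2 library) and 0 to 0 between the controls. The pooled comparisons had 0 to 0 in both lines, the lines 32 to 47 and the interaction 0 to 6 (6 without SCaBER siFOXA1.1 replicate 2). Between the lines COX7C was -0.0341 and ATP5F1B -0.0069 on TPM with either pseudocount, on the other side of 0, and the cause was not tested. At this depth 10 of the 87 genes had 3 counts or fewer in at least 1 library.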
